A study of Rattus norvegicus with 30 samples.

Results

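The genes described here are Plau, Plaur, Mmp2 and Timp1, a set of 4 of the 17353 gene symbols in the expression table, taken by name over all 10 groups of libraries. Plau encodes urokinase (uPA), a secreted serine protease, and Plaur encodes uPAR, the receptor that holds it at the cell surface. Mmp2 encodes gelatinase A, a secreted metalloproteinase, and Timp1 encodes a secreted inhibitor of metalloproteinases. The cells were REF, a line of rat embryonic fibroblasts whose transformation is labelled as none. Control cells were not starved of serum, and the other 9 groups were starved for 2, 3, 4, 6, 8, 10, 12, 14 or 16 days, with 3 biological replicates in each group and 30 libraries in all. The labels do not say whether replicates were separate cultures, so p-values measure the spread between these libraries.

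Urokinase bound to its receptor cleaves plasminogen to plasmin, a broad protease that dissolves fibrin, degrades matrix glycoproteins and activates other proteases. Serpins block urokinase, and the complexes are taken up by the endocytic receptor Lrp1. Gelatinase A is made as an inactive precursor and is activated at the cell surface by the membrane metalloproteinase Mmp14 together with Timp2. Its substrates include gelatin and type IV collagen. Fibroblasts make most of these proteins, which remodel matrix in wounds, while plasminogen comes mainly from the liver through the blood. The data measure transcripts, not enzyme activity.

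The promoters of the members are shown because their transcripts took different courses. RefSeq's promoter table for the GRCr8 build matched 3 of the 4 genes, and Mmp2 was not among them. The GRCr8 coordinates apply to these sequences only, since the submitters' processing notes name rn6 for the expression values. Each line gives the 250 bases upstream of the transcript start in that table, 5′ to 3′ on the gene's own strand. For Plau and Plaur this start is also the start of the RefSeq gene, and for Timp1 it is not. Capitals mark the motifs searched for on both strands, which were TGANTCA (bound by AP-1), GGGCGG (the GC box, which reads CCGCCC on the other strand) and TATAAA (the TATA box). None of these motifs overlapped another.
Plau, chr15:3511988-3512237, minus strand: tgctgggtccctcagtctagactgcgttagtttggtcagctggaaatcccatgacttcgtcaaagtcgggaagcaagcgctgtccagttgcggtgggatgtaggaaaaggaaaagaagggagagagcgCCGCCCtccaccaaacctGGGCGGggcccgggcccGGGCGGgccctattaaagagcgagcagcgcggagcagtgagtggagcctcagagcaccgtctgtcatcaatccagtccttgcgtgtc
Plaur, chr1:89181113-89181362, plus strand: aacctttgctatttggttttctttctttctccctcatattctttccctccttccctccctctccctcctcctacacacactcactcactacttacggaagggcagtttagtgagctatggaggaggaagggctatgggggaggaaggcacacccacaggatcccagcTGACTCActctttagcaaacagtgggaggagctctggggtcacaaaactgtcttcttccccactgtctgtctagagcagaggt
Timp1, chrX:3771123-3771372, minus strand: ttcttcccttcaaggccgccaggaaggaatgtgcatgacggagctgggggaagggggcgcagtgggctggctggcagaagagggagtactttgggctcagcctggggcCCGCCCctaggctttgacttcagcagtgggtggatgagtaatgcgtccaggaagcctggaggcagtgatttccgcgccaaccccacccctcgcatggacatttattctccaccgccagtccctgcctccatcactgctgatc
The Plau window held 3 GC boxes, the Timp1 window 1 and the Plaur window 0. The Plaur window held 1 match to TGANTCA, with its first base at -83 from the transcript start, and the other windows held 0. No window held TATAAA. Of 33465 rat promoter windows of this length, 30.5% held a GC box, 6.34% held TGANTCA and 12.9% held TATAAA. A match describes the letters and is not evidence of binding. Only exact matches were counted, so a count of 0 does not mean that a window lacks a variant of the motif. The Timp1 window, for example, holds tgagtaa, which differs from TGANTCA in 1 letter.

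Across the 30 libraries the FPKM sums ran from 582501 to 785072, and correlations between replicates of a group from 0.9814 to 0.9913 (log2 values, Pearson, across genes). Of 17353 genes, 8940 averaged at least 1 FPKM and were tested, all 4 members among them. Of the 10 fibroblast markers listed, 7 reached that mean, and Col1a1 and Vim were high in every library. The fibroblast list summed to 14931 to 16947 FPKM in control, 24608 to 28764 at day 2, 8638 to 10059 at day 8 and 9982 to 11506 at day 16, so it was highest at the day when Mmp2 was highest. Of its 7 tested genes, 5 rose and 0 fell at day 2, when 2680 of 8940 genes were called higher. From day 2 to day 8, 6 fell and 1 rose, when 18.4% of genes were called lower and 17.4% higher. Thy1, a fibroblast surface marker, was listed at 0 in 26 libraries and Pdgfra had a median of 0.554 FPKM. Col1a2 was listed at 0 in all 30 libraries although Col1a1 never fell below 678.7 FPKM, so a listed 0 in this table need not mean that the transcript was absent. None of the 8 macrophage or 6 endothelial markers reached a mean of 1 FPKM. The macrophage markers summed to 7.11 to 7.40 FPKM in control and 0.245 to 2.16 in starved libraries. Csf1r averaged 4.33 FPKM and Cd14 2.82 in control, and at day 2 they averaged 0.210 and 1.59. Ptprc was at 0 in 28 libraries and Adgre1 in 30. Of 6 epithelial markers only Krt8 reached it, and the list summed to 10.9 to 12.9 FPKM in control, 20.3 to 23.7 at day 2 and 62.2 to 75.8 at day 16. Of 8 skeletal muscle markers 3 did, and the list summed to 315 to 338 FPKM in control, 131 to 168 at day 2, 23.2 to 25.4 at day 8 and 39.0 to 47.1 at day 16. Its tested genes, named here after their values were seen, went opposite ways at day 2. The myogenic factor Myod1 fell from 237 ± 19.1 to 3.51 ± 0.965 FPKM (SD, n = 3, log2 difference -5.74 ± 0.24, limma adjusted p = 1.67e-16), and the intermediate filament gene Des fell as well (-3.03 ± 0.11, adjusted p = 7.17e-18). The troponin gene Tnnt2 rose from 2.22 ± 0.308 to 141 ± 21.3 FPKM (5.45 ± 0.16, limma adjusted p = 1.57e-19) and fell to 6.31 ± 1.38 by day 8 (-4.28 ± 0.16, adjusted p = 4.33e-17), the same directions as Mmp2. The part these markers have in the results below was not tested. In bulk RNA, fewer cells of a type and less RNA per cell cannot be told apart.

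**Figure D1:**
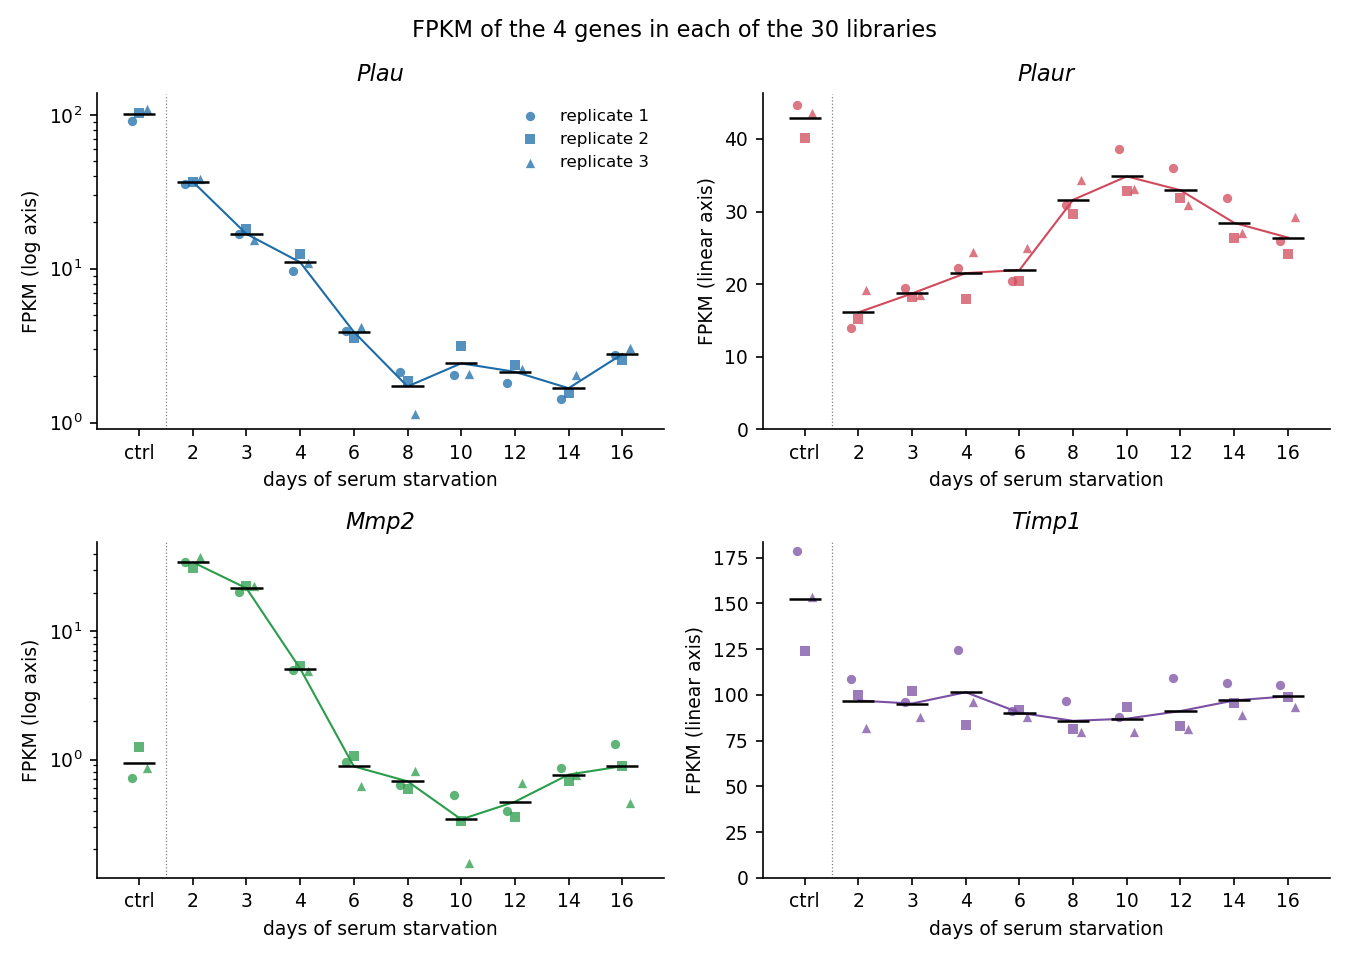
FPKM of Plau, Plaur, Mmp2 and Timp1 (vertical axes, logarithmic for Plau and Mmp2, linear from 0 for Plaur and Timp1) in control and after 2 to 16 days of serum starvation, with days at equal spacing. Symbols are single libraries, black bars are group means and lines join the starved means. Plau drops from 101 to 1.72 FPKM by day 8, Plaur is lowest at day 2 (16.1), Mmp2 is highest at day 2 (34.7), and Timp1 stays between 79.5 and 125 in the starved libraries.

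Plau, the plasminogen activator, fell steeply and stayed low. Its level was 91.7, 102 and 109 FPKM in the control libraries and 35.4, 36.6 and 38.3 at day 2. It was 16.9, 18.1 and 15.5 at day 3, 9.64, 12.5 and 10.9 at day 4, and 3.96, 3.54 and 4.17 at day 6. Each of these groups lay wholly below the one before it. At day 8 the libraries held 2.14, 1.88 and 1.14 FPKM, at day 10 2.05, 3.15 and 2.09, and at day 12 1.82, 2.38 and 2.23. They held 1.43, 1.55 and 2.05 at day 14 and 2.74, 2.57 and 3.06 at day 16. In the order of the 10 group means, control, day 2, day 3, day 4 and day 6 came first without overlap, and from day 16 down to days 10, 12, 8 and 14 every neighbouring pair overlapped.

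At day 2, mean Plau was 36.7 ± 1.48 against 101 ± 8.86 FPKM in control (SD, n = 3 libraries here and throughout), a 2.75-fold lower level. On the log2(FPKM + 1) scale, on which all tests were run, Plau fell by 1.43 ± 0.14 (SE; limma, two-sided, Benjamini-Hochberg adjusted p = 1.29e-09). From day 2 to day 8 it fell by 3.81 ± 0.14 (limma, adjusted p = 2.74e-17), which placed it as the 7th lowest change among 8940 genes. Day 16 was 36.2-fold below control in FPKM (log2 difference -4.75 ± 0.14, limma adjusted p = 5.19e-20), and that comparison shares its control libraries with day 2. Between day 8 and day 16 Plau rose by 0.50 ± 0.14 (limma, adjusted p = 0.00708), from 1.72 ± 0.521 to 2.79 ± 0.252 FPKM. That late call was lost without day 8 replicate 3 (0.33, limma adjusted p = 0.0815) and in a fit of only the 6 libraries compared (adjusted p = 0.0529).

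Plaur, the receptor, fell with its ligand at day 2 but then went the other way. The control libraries held 44.7, 40.2 and 43.6 FPKM and the day 2 libraries 14.0, 15.2 and 19.2. Levels were 19.4, 18.2 and 18.5 at day 3, 22.2, 17.9 and 24.4 at day 4, and 20.4, 20.5 and 25.0 at day 6. These overlapped from one day to the next. They stood at 30.8, 29.6 and 34.4 FPKM at day 8, 38.7, 32.8 and 33.1 at day 10, and 36.0, 31.9 and 30.9 at day 12, all above the day 6 libraries. At day 14 they were 31.9, 26.4 and 27.03 and at day 16 25.9, 24.1 and 29.3. In the order of means control came first and apart from day 10, and every neighbouring pair below it (days 10, 12, 8, 14, 16, 6, 4, 3 and 2) overlapped.

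Plaur fell at day 2 from 42.8 ± 2.39 to 16.1 ± 2.70 FPKM (log2 difference -1.37 ± 0.12, limma adjusted p = 1.72e-10). From day 2 to day 8 it rose to 31.6 ± 2.49 FPKM (0.94 ± 0.12, limma adjusted p = 3.67e-07). At day 16 it was still below control (-0.68 ± 0.12, limma adjusted p = 1.32e-05). The difference between day 16 and day 8 was -0.25 ± 0.12 (95% interval -0.49 to -0.01 before adjustment) and did not pass (limma, adjusted p = 0.105), although the 3 libraries of each day did not overlap. After each library was rescaled to a sum of 1000000 it did pass (-0.42, limma adjusted p = 0.0288), but the median of all genes was then -0.16.

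Because Plau and Plaur fell alike at day 2, the ratio of their FPKM, which is per transcript length, was 2.37 in control (2.05 to 2.54 over libraries) and 2.31 at day 2 (2.00 to 2.52). The ratio dropped to 0.900 at day 3, 0.526 at day 4, 0.178 at day 6 and 0.0553 at day 8 (0.0331 to 0.0695). At day 16 it was 0.106, with 0.105 and 0.106 as its lowest and highest libraries. Receptor transcripts were thus fewer per length than those of the protease in every control and day 2 library and more numerous in every library from day 3 on. These ratios were not tested.

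**Figure D2:**
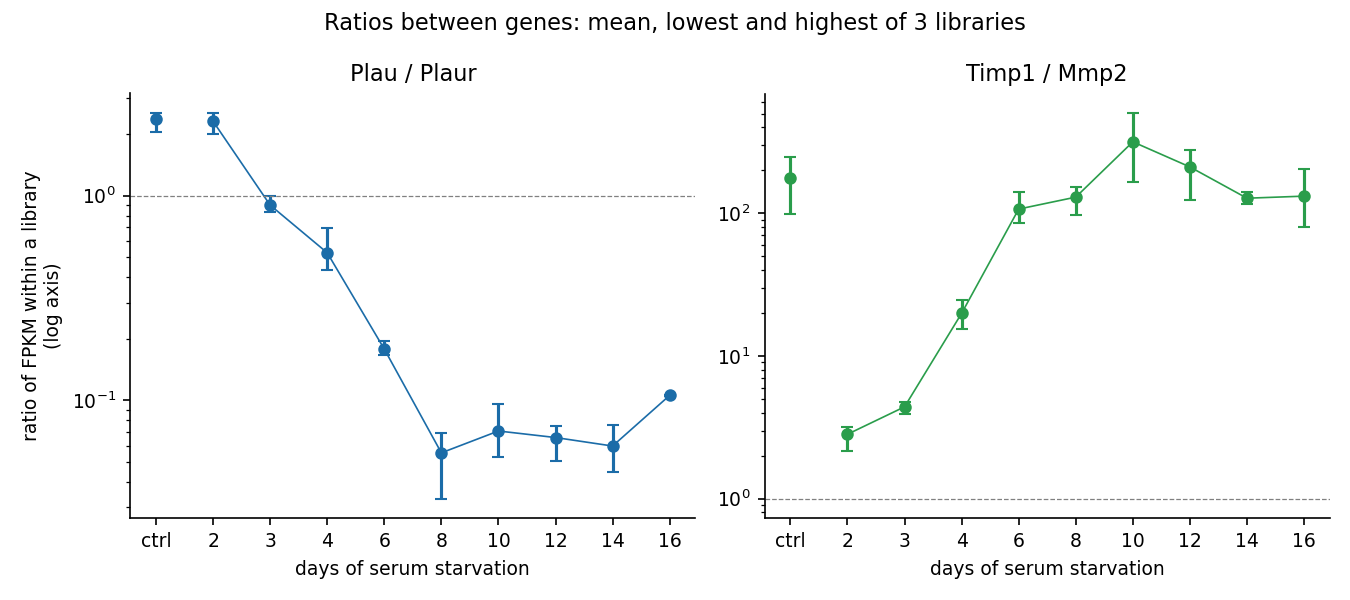
Ratio of FPKM between pairs of genes within a library (vertical axes, logarithmic) in control and at each day of starvation, with days at equal spacing. Points are means, bars run from the lowest to the highest of 3 libraries, and the dashed line marks equal FPKM. Plau/Plaur goes from 2.37 in control to 0.0553 at day 8, and Timp1/Mmp2 is lowest at day 2 (2.82).

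Mmp2, the gelatinase, was highest at day 2, the earliest starved day measured, and its course before that day was not seen. In control libraries it was at 0.716, 1.25 and 0.856 FPKM, and at day 2 at 34.8, 31.4 and 37.9. It was at 20.2, 22.5 and 22.5 FPKM at day 3 and at 5.02, 5.42 and 4.95 at day 4. By day 6 it had returned to 0.959, 1.07 and 0.625, within the control range or below. Later libraries held 0.629, 0.588 and 0.812 FPKM at day 8, 0.533, 0.334 and 0.157 at day 10, and 0.395, 0.355 and 0.655 at day 12. They held 0.855, 0.675 and 0.761 at day 14 and 1.31, 0.893 and 0.456 at day 16. Days 2, 3 and 4 stood apart from each other and from all other groups, and from control down (day 16, day 6, day 14, day 8, day 12, day 10) every neighbouring pair overlapped. Groups further apart in that order need not overlap, and every library of days 10 and 12 lay below every control library.

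Mean Mmp2 was 36.9-fold higher at day 2 than in control (34.7 ± 3.25 against 0.941 ± 0.277 FPKM). On the log2(FPKM + 1) scale, which understates the change of a gene near 0, the rise was 4.21 ± 0.15, or 18.5-fold (limma, adjusted p = 6.79e-18). Only 7 of the 8940 genes had a larger fitted rise. From day 2 to day 8 Mmp2 fell by 4.41 ± 0.15 (limma, adjusted p = 9.41e-18), the 3rd lowest change of all genes tested. The comparison of day 16 with control gave -0.06 ± 0.15 (95% interval -0.36 to 0.25, limma adjusted p = 0.748), and that of day 16 with day 8 0.15 ± 0.15 (-0.16 to 0.45, adjusted p = 0.479). Levels under 1 FPKM rest on few reads, and the read depth is unknown.

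Timp1, the inhibitor, was lower at day 2 than in control, and none of the tests run among the starved groups called it. The control libraries held 179, 124 and 154 FPKM and the day 2 libraries 109, 99.9 and 82.0. Across the 27 starved libraries it ran from 79.5 to 125 FPKM, the highest being day 4 replicate 1, which overlapped the lowest control library. The 10 group means ran from 152 in control to 101 at day 4, the next highest, and 85.8 at day 8, the lowest, and every neighbouring pair in that order overlapped. Group means for days 2 and 16 were 96.9 ± 13.7 and 99.3 ± 6.00 FPKM.

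At day 2 Timp1 was lower than in control by 0.64 ± 0.14 (log2 scale, 95% interval of the difference -0.92 to -0.35, limma adjusted p = 0.000294), and the libraries did not overlap. At day 16 the difference from the same controls was -0.60 ± 0.14 (limma, adjusted p = 0.000490). Replicate 1 held the highest Timp1 of its group in 7 of the 10 groups, and libraries numbered 1 deviated together across genes. With replicates 2 and 3 only, the day 2 difference was -0.60 (limma, adjusted p = 0.000351). Day 8 against day 2 gave -0.17 ± 0.14 (-0.45 to 0.12, adjusted p = 0.368) and day 16 against day 8 0.21 ± 0.14 (-0.07 to 0.50, adjusted p = 0.260).

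**Figure D3:**
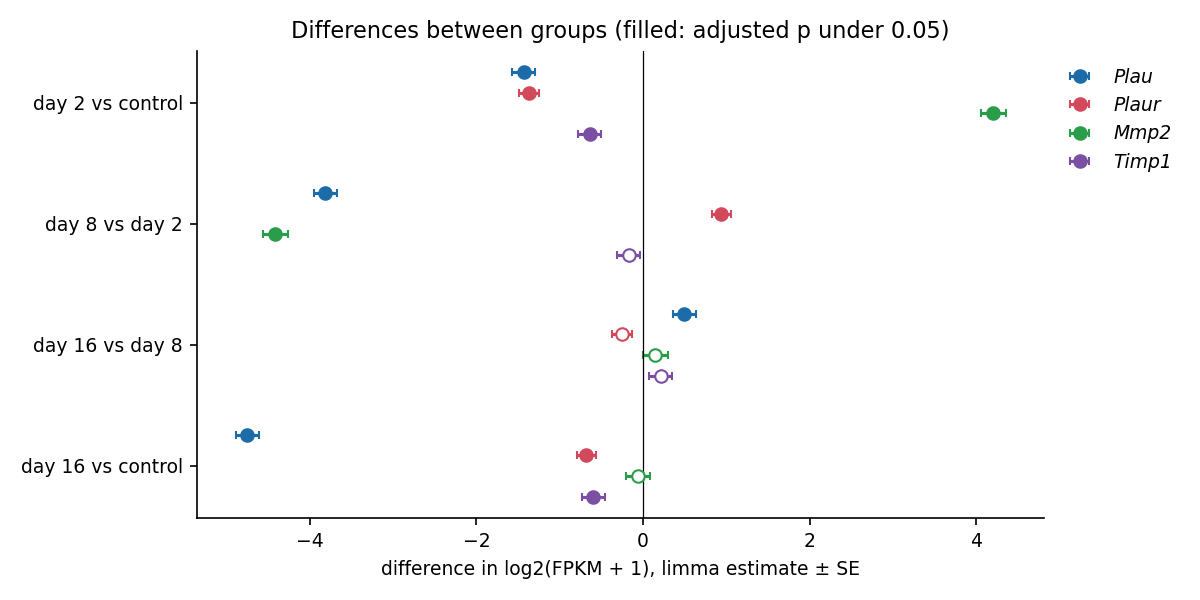
Differences in log2(FPKM + 1) between groups (horizontal axis, limma estimate ± SE) for Plau, Plaur, Mmp2 and Timp1 in 4 comparisons, filled where the adjusted p is under 0.05. Mmp2 is higher by 4.21 at day 2 and differs by -4.41 between days 2 and 8. Plau differs by -4.75 between day 16 and control. Timp1 is filled only in the comparisons with control.

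A change at day 2 was common among all genes. All 4 members were called at day 2, against 60.7% of the 8940 genes, and in all 4 the libraries of the 2 groups did not overlap, against 63.0%. The 3 falls compare with 30.7% of genes called lower. Mmp2 was among the 7.44% of genes called and at least 2-fold higher, and Plau and Plaur among the 8.43% called and at least 2-fold lower. From day 2 to day 8, 3 of 4 members were called, against 35.8% of genes, with 1 rise against 17.4% called higher and 2 falls against 18.4% called lower. The libraries of these 3 did not overlap, against 46.4% of genes. Plau and Mmp2 were among the 3.60% called and at least 2-fold lower. From day 8 to day 16, 1 of 4 was called, against 30.2%, a rise against 15.8% called higher, and the libraries of Plau and Plaur did not overlap, against 46.1%. For day 16 against control it was 3 of 4, against 67.5%, all falls against 35.0% called lower, and the libraries of these 3 did not overlap, against 70.2%.

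Along the starved course, the slope over the 27 libraries of days 2 to 16 is given as the fitted change over 14 days. Plau fell by 3.15 ± 0.43 (limma, adjusted p = 4.56e-07) and Mmp2 fell by 3.93 ± 0.61 (adjusted p = 3.40e-06), the 11th and 6th lowest slopes among 8940 genes. Plaur rose by 0.77 ± 0.15 (adjusted p = 0.000100). Timp1 had a slope of -0.01 ± 0.09 (95% interval -0.20 to 0.18, adjusted p = 0.958). So 3 of 4 members were called, against 55.5% of genes, with 1 rise against 26.6% called higher and 2 falls against 28.9% called lower. A straight line describes Plau and Mmp2 poorly, since most of their fall lay before day 8. The course of Plaur was not straight either, with means of 16.1 FPKM at day 2, 34.8 at day 10 and 26.4 at day 16. A moderated F test for any difference among the 9 starved groups called Plau, Plaur and Mmp2 (limma, adjusted p = 3.47e-18, 3.47e-08 and 9.09e-20) but not Timp1 (adjusted p = 0.727), against 61.5% of genes called.

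Rescaling each library to a sum of 1000000 moved the median of all genes by over 0.1 (log2) in some comparisons. The median became 0.11 for day 8 against day 2, -0.16 for day 16 against day 8 and -0.14 for the slope. Of the genes called, the share that was higher went from 48.7% to 64.0%, from 52.2% to 22.9% and from 47.9% to 32.6% in these comparisons. For Plau and Mmp2 the change from day 2 to day 8 was then -3.91 and -4.65, and for Plaur 1.05.

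The other plasminogen activator, Plat, rose at day 2 while Plau fell. Of 11 other genes of plasminogen activation listed, all were in the table and 5 were tested. At day 2 there was 1 call up and 1 down, where 2680 of 8940 genes were called higher and 30.7% lower. The median change was -0.23 against 0.00 for all genes. Plat, which encodes tissue plasminogen activator, rose at day 2 from 13.0 ± 0.690 to 46.0 ± 2.26 FPKM (1.75 ± 0.12, limma adjusted p = 1.59e-12). It fell to 4.96 ± 0.784 FPKM at day 8 (-2.99 ± 0.12, limma adjusted p = 1.47e-16) and rose again to 19.3 ± 1.07 at day 16 (1.78 ± 0.12, adjusted p = 1.38e-11). So at day 2 Plat transcripts were above those of Plau per length, as they were at day 8 and at day 16. The plasminogen-binding pair Anxa2 and S100a10 was high throughout (752 to 1562 and 671 to 1947 FPKM). Neither was called at day 2 (-0.03 ± 0.08 and -0.27 ± 0.16, limma adjusted p = 0.765 and 0.150), and S100a10 was called lower there after 2 of the 4 rescalings tried (adjusted p = 0.0443 with sums of 1000000 and 0.0116 with quantile normalization). Both fell over days 2 to 16 (-0.72 ± 0.08 and -0.85 ± 0.13 over 14 days, adjusted p = 1.19e-08 and 2.24e-06). Eno1, a glycolytic enzyme that also binds plasminogen, fell at day 2 (-0.89 ± 0.08, adjusted p = 1.29e-09). Plg, which encodes plasminogen itself, was listed at 0 in 23 libraries and never exceeded 0.287 FPKM.

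The serpin Serpine2 and the clearance receptor Lrp1 went in opposite directions at day 2. Serpine2, protease nexin 1, fell at day 2 (24.4 ± 0.700 to 8.14 ± 1.01 FPKM, -1.48 ± 0.11, limma adjusted p = 5.12e-12) and rose over days 2 to 16 (1.70 ± 0.17 over 14 days, adjusted p = 1.55e-09). Lrp1 rose at day 2 from 46.4 ± 15.2 to 148 ± 47.0 FPKM (1.66 ± 0.23, limma adjusted p = 9.99e-07) and had a slope of 0.05 ± 0.16 after that (adjusted p = 0.820). Serpinb2, plasminogen activator inhibitor 2, was listed at 0 in all 30 libraries.

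Of 12 genes for partners of the urokinase receptor, 10 were in the table and 6 tested. At day 2, 5 rose and 1 fell (median 0.59), where 2680 of all 8940 genes were called higher. Over days 2 to 16, 5 fell and 0 rose (median -0.78), where 28.9% of genes were called lower. The caveolin Cav1 rose at day 2 from 221 ± 12.5 to 402 ± 19.2 FPKM (0.86 ± 0.07, limma adjusted p = 4.43e-11). Mrc2, a collagen uptake receptor that binds the urokinase receptor, rose from 34.5 ± 6.25 to 62.0 ± 11.5 (0.83 ± 0.14, adjusted p = 2.30e-05) and was back at 29.2 ± 3.05 by day 8 (-1.05 ± 0.14, adjusted p = 1.95e-06). The fibronectin receptor subunit Itga5 fell at day 2 (-0.48 ± 0.07, adjusted p = 1.34e-06), and Itgb1 had the largest fall over days 2 to 16 (-1.13 ± 0.13, adjusted p = 2.94e-08). Vtn, which encodes vitronectin, was listed at 0 in all 30 libraries. The median of this list depends on 6 genes, and the day 2 call of Egfr among them failed when replicate 1 or 2 of control (limma, adjusted p = 0.190 and 0.0566) or replicate 2 or 3 of day 2 was removed (0.120 and 0.230). The slope call of Itga5 failed without day 2, 3 or 12 (adjusted p = 0.519, 0.0747 and 0.0537) and without replicate 2 or 3 of day 2 (0.0597 and 0.0569).

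**Figure D4:**
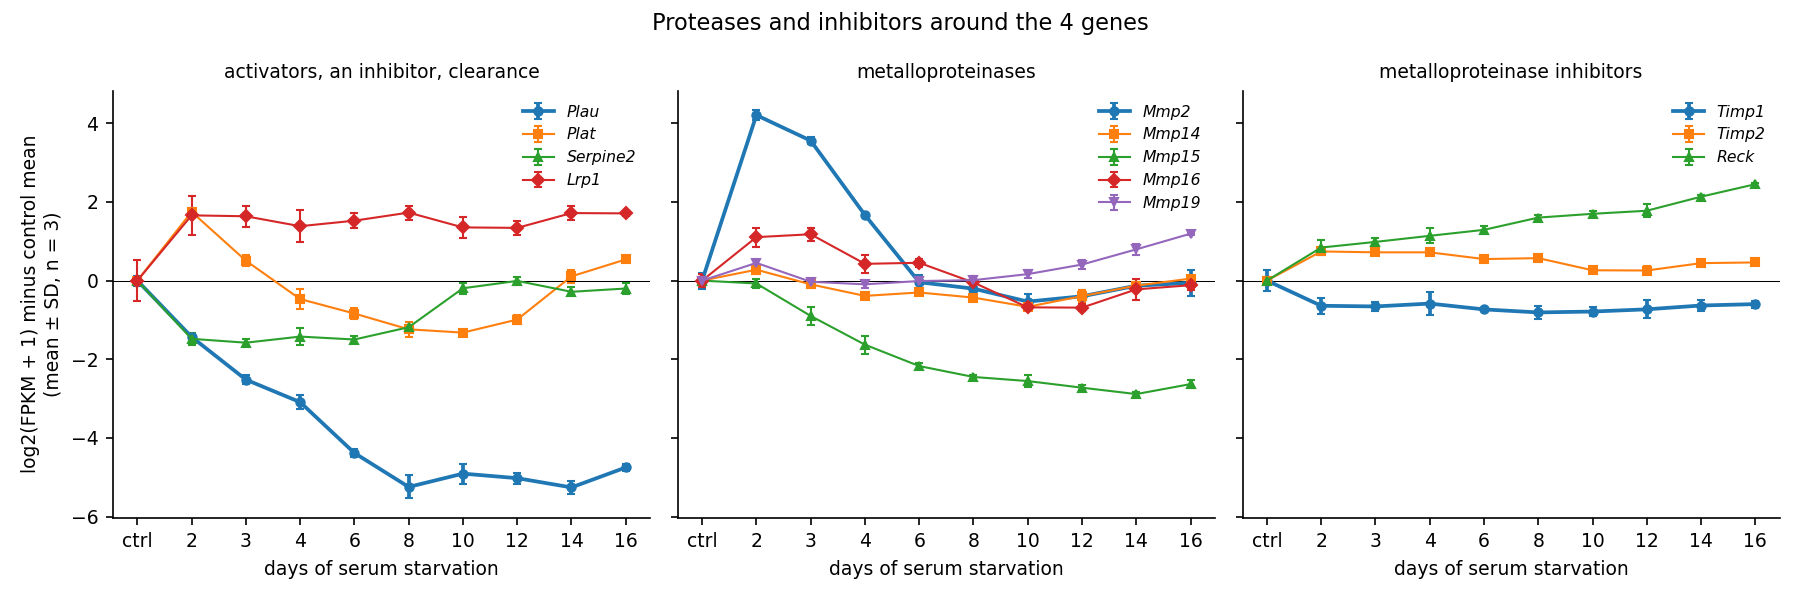
Mean log2(FPKM + 1) minus the control mean (vertical axis, ± SD of 3 libraries) for plasminogen activators with a serpin and a clearance receptor, for metalloproteinases, and for metalloproteinase inhibitors, against days of starvation at equal spacing. Mmp2 rises by 4.21 at day 2 and Plat by 1.75, while Plau falls by 1.43, and Reck is higher at day 16 than at day 2.

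Of 20 other metalloproteinases listed, 19 were in the table and 5 were tested. At day 2, 3 rose and 0 fell (median 0.28), where 2680 of all 8940 genes were called higher. From day 2 to day 8, 4 fell and 0 rose (median -0.71), where 18.4% of genes were called lower. Mmp14, the activator of gelatinase A, rose at day 2 from 164 ± 10.0 to 199 ± 15.3 FPKM (0.28 ± 0.08, limma adjusted p = 0.00325), fell to 121 ± 8.08 at day 8 (-0.71 ± 0.08, adjusted p = 4.72e-08) and was back at 170 ± 4.15 at day 16 (0.48 ± 0.08, adjusted p = 3.23e-05). The ratio of its FPKM to that of Mmp2 averaged 182 in control, 5.77 at day 2 and 394 at day 10 (189 to 695 over libraries). Mmp16, another membrane metalloproteinase, rose at day 2 from 19.5 ± 2.28 to 43.3 ± 7.19 FPKM (1.10 ± 0.13, adjusted p = 5.56e-08). Mmp15 fell with longer starvation, from 10.2 ± 0.928 FPKM at day 2 to 0.909 ± 0.146 at day 16 (slope -2.28 ± 0.27 over 14 days, adjusted p = 5.54e-08). Mmp19 rose, from 35.8 ± 2.05 to 60.6 ± 1.09 (0.92 ± 0.16, adjusted p = 1.86e-05). Its rise was not steady, since it was lower at day 8 than at day 2 (-0.44 ± 0.08, limma adjusted p = 7.13e-05). Mmp3 was listed at 0 in all 30 libraries, Mmp13 in 28 and Mmp9 in 15, the last never above 0.293 FPKM.

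The other inhibitors of metalloproteinases did not share the fall of Timp1. Of 4 listed, Timp2 and Reck were tested and both rose at day 2, where 2680 of 8940 genes were called higher. Timp2 rose from 486 ± 33.8 to 812 ± 35.2 FPKM (0.74 ± 0.07, limma adjusted p = 6.49e-10) and fell slightly over days 2 to 16 (-0.40 ± 0.08 over 14 days, adjusted p = 0.000128). Reck, a membrane-anchored inhibitor, rose from 6.38 ± 0.436 to 12.3 ± 1.89 FPKM at day 2 (0.84 ± 0.10, adjusted p = 8.43e-08) and to 39.3 ± 1.11 at day 16 (slope 1.48 ± 0.08, adjusted p = 2.55e-15). Timp3 was listed at 0 in 29 libraries. The ratio of Timp1 to Mmp2 within a library averaged 176 in control, 2.82 at day 2, 4.40 at day 3, 19.9 at day 4 and 107 at day 6. Timp1 exceeded Mmp2 per length in every library.

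Correlations between genes across the 30 libraries are given as descriptions, since the libraries share groups and scaling. Pearson's r of log2(FPKM + 1) was 0.56 between Plau and Mmp2, 0.63 between Plau and Timp1, -0.15 between Plau and Plaur, and -0.79 between Plaur and Mmp2. Between Timp1 and Plaur r was 0.31, and between Timp1 and Mmp2 it was -0.01. Among 7175 other genes that averaged 5 FPKM or more, the most like Plau were Plk2, Igfbp4 and Vcan (r = 0.98, 0.97 and 0.97). For Plaur they were Cd200, Id2 and Id1 (0.90, 0.88 and 0.86), and for Mmp2 Col3a1, Aldh3a1 and Ccdc80 (0.97, 0.96 and 0.96). For Timp1 they were Mrps12, Eef1d and Taf10 (0.91, 0.91 and 0.90). Replicate 1 held the highest Mrps12 and Eef1d of its group in 10 of 10 groups and the highest Taf10 in 7. The fibrillar collagen gene Col3a1 stood at 1770 ± 44.6 FPKM in control, 6248 ± 534 at day 2 and 990 ± 19.1 at day 8. The matrix proteoglycan gene Vcan stood at 125 ± 15.6, 101 ± 9.43 and 9.40 ± 0.529 on the same days, and Id2, an inhibitor of basic helix-loop-helix factors, at 232 ± 11.7, 7.38 ± 0.818 and 80.7 ± 0.722.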

How the data were processed

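The authors deposited 1 FPKM value per gene and library, a fragment density scaled for transcript length and library size. The submitters' processing notes name TopHat2 2.1.1, Cufflinks, Cuffnorm 2.2.1 and the rn6 build, and the annotation, filters and scaling are not given in the sources used here. The values are FPKM and not read counts, so depth is unknown and no counting interval is given. Genes with a mean of at least 1 FPKM were analysed as log2(FPKM + 1) with limma 3.58.1 in R 4.3.3, with moderated variances and a mean-variance trend. Contrasts came from 1 fit of 10 group means and slopes from days 2 to 16. Tests were two-sided, adjusted by Benjamini-Hochberg over 8940 genes at a threshold of 0.05, and the fit was tested on simulated data. Members and gene lists were chosen with earlier results of these data known. Named genes were the members, the 3 most like each, 17 preset list genes, of which 1 is not reported here, and the largest called rise and fall of each list at day 2 and in the slope. Alternatives covered pseudocount, filters, scaling, replicates and time points.

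Replicate numbers were checked by correlating deviations from group means across genes. Same-numbered libraries correlated at 0.592, 0.209 and 0.188 between control and day 2 and at 0.440, 0.135 and 0.357 between control and day 16. So from the data, not the labels, libraries numbered 1 deviated alike there, and numbers may pair the libraries. Deviations within a group cancel out, so a likeness of number 1 alone also raises the values of numbers 2 and 3. Whether numbers 2 and 3 are paired was not settled. Between days 8 and 2 the lowest was 0.000524 and between days 16 and 8 0.0486. Over all pairs of groups the mean was 0.360 for number 1. No fit reported as the main result holds a replicate block.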

Additional observations from a re-analysis of the deposited data

How the results depend on the processing

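Calls of the members at day 2, from day 2 to day 8 and at day 16 against control kept direction and side of the threshold under all alternatives, apart from sign changes of differences near 0. For Plaur from day 8 to day 16, the difference passed with short RNA genes left out (-0.406) and sums of 1000000 (-0.422), and with the replicate block (-0.252, limma adjusted p = 0.0466). For these rescalings the median of all genes was -0.15 and -0.16. The replicate block changed no other call of a member. For Plau over the same days, the rise missed the threshold with only the 6 libraries compared (0.495) and ranged from 0.331 to 0.610 with 1 library left out. Mmp2 from day 8 to day 16 changed sign with quantile normalization (-0.00494) and with replicates 2 and 3 only (-0.031), and ranged from -0.012 to 0.322 with 1 library left out. Mmp2 at day 16 against control was 0.00125 after scaling by the upper quartile and -0.216 to 0.118 with 1 library left out. The Timp1 slope was 0.010 after scaling by the upper quartile. It was 0.0210, 0.00663, 0.0314, 0.00690 and 0.00691 without day 2, 3, 4, 10 or 12, and -0.044 to 0.038 with 1 library left out. None of these Mmp2 and Timp1 values passed, and the cause of the changes was not tested. Counts of genes called stayed within 1.5 times, with 3387 to 5303 for the slope. Read depth is unknown, so how far low values of Mmp2 can be told apart is unknown.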

Other observations

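Genes of the matrix that plasmin and gelatinases can cleave rose at day 2, while Plau fell and Mmp2 rose. Of 16 listed, 12 were in the table and 10 tested, of which 9 rose and 1 fell at day 2 (median 1.09 against 0.00 for all genes, of which 2680 of 8940 were called higher). Over days 2 to 16, 1 rose and 5 fell, where 28.9% of all genes were called lower. After rescaling to sums of 1000000, 7 fell, where 3256 of 8940 genes were called lower. The proteoglycan gene Bgn rose from 1329 ± 19.2 to 4370 ± 114 FPKM at day 2 (1.72 ± 0.09, limma adjusted p = 2.47e-14) and to 8053 ± 588 at day 16 (slope 0.71 ± 0.10 over 14 days, adjusted p = 6.19e-07). Tnc, an adhesion-modulating glycoprotein, fell at day 2 (-0.54 ± 0.14, limma adjusted p = 0.00130). Tnc was low throughout, at 0.115 to 3.69 FPKM over the 30 libraries. The basement membrane gene Nid2 had the largest fall over days 2 to 16, from 121 ± 11.0 to 26.4 ± 0.414 FPKM (-1.84 ± 0.13, adjusted p = 4.35e-12).

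Of 15 AP-1 and ETS transcription factor genes, which include known regulators of protease genes, 13 were tested. At day 2, 2 were up and 7 down (median -0.46), where 30.7% of all genes were called lower. Over days 2 to 16, 5 were up and 5 down, where 26.6% of genes were called higher and 28.9% lower. The slope counts depended on scaling, with 3 up and 5 down for sums of 1000000 and 6 up and 4 down with quantile normalization. Among all 8940 genes, 1573 were called higher and 3256 lower for sums of 1000000, and 2572 higher and 2445 lower with quantile normalization. The slope counts of these factors also depended on the libraries used. The call of Jun failed without day 2 (limma, adjusted p = 0.227). That of Ets2 failed without day 2, 3, 4 or 12 (0.138, 0.0866, 0.0931 and 0.0946), and that of Elk1 without day 3, 4, 6, 8 or 12 (0.230, 0.0862, 0.0542, 0.0544 and 0.152). Both also failed without several single libraries. That of Fosl1 failed without day 14 or 16 (0.118 and 0.793) or any 1 library of day 16 (0.0549 to 0.0957). Fosl1 had the largest fall at day 2, from 35.1 ± 1.28 to 8.87 ± 0.896 FPKM (-1.88 ± 0.14, limma adjusted p = 1.41e-11). Fosb had the largest rise but stayed low, from 0.616 ± 0.198 to 1.67 ± 0.172 FPKM (0.73 ± 0.18, adjusted p = 0.00135). Over days 2 to 16 Ets1 fell from 7.80 ± 0.866 to 3.37 ± 0.145 FPKM (-1.11 ± 0.15, adjusted p = 5.46e-07), and Atf3 rose from 0.490 ± 0.197 to 1.46 ± 0.106 (1.27 ± 0.20, adjusted p = 5.76e-06).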
